A study of Danio rerio with 6 samples.

Results

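The antioxidant and glutathione genes described here are the enzymes and regulators that remove hydrogen peroxide, superoxide and oxidised thiols from the liver of adult zebrafish. They were chosen by name from the deposited gene table: every gene whose name begins with gpx, prdx, sod1, sod2, sod3, txnrd, gclc, gclm, keap1, nfe2l, nqo1, srxn1, msr, glrx or mt2, or whose whole name is gss, gsr or cat. This gave 42 of 23354 genes. RNA sequencing compared 3 libraries of capn3b-/- mutant livers with 3 libraries of livers from wild type fish of the laboratory strain AB, all from adults with no treatment named. The gene capn3b encodes a zebrafish calpain 3, a calcium-dependent cysteine protease, and the series asked which genes differ between mutant and wild type livers. The labels give neither the allele of the mutation nor the sex of the fish, so that a difference in sex and one in genotype cannot be told apart. It is also not given whether the wild type fish were siblings of the mutants. Nor do the labels state that each library is another fish. The p-values therefore describe the spread among these libraries, which could be technical.

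Hydrogen peroxide in cells is broken down by catalase, by glutathione peroxidases, which spend the tripeptide glutathione, and by peroxiredoxins, which spend thioredoxin. Glutathione reductase and thioredoxin reductase restore those reduced carriers with electrons from NADPH. In the vertebrate liver, many of these genes answer to the transcription factor NRF2 (nfe2l2 genes), which the adaptor protein KEAP1 holds in check by handing it to a ubiquitin ligase.

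The name rule can be set against the annotation deposited with each gene: for 39 of the 42 genes it describes a redox enzyme or an NRF factor in words, the others being keap1a, keap1b and mt2. Names and annotation differ for some of them. The deposited protein match of txnrd1 is thioredoxin reductase 3, that of gpx1b is glutathione peroxidase 2, and that of nqo1 is its relative NQO2. The match of nfe2l2b is NRF1, so that its place as a copy of NRF2 rests on its name. In the gene name table the identifier of prdx2 carries the symbol PRDX1 and that of mt2 the symbol MT1X. Levels are in FPKM, reads per gene length and per depth of the library, and can be compared between genes. A related gene that the rule does not take is TXNRD2, written in capitals. It had 0.503, 0.279 and 0.352 FPKM in mutant libraries against 0.59, 0.753 and 1.34 FPKM in wild type libraries. Another is ccs, the copper chaperone of sod1, with 8.99, 5.61 and 8.99 FPKM in the mutant against 4.87, 3.99 and 4.11 FPKM in wild type (limma adjusted p = 0.0509).

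Sequencing depth was 17905457 to 18470779 reads in mutant libraries and 16858409 to 19492592 reads in wild type libraries. The mutated gene capn3b itself, on chromosome 20, had 1 read in mutant replicate 3 and 0 reads in the other 5 libraries, so it checks no label. With 0 reads, up to 3 reads (0.0514 to 0.0594 FPKM for this gene) remain possible by counting error alone. Markers of several other cell types differed between genotypes. Of all tested genes, 5.91% were higher and 5.45% lower in the mutant (limma, adjusted p under 0.05). Of 13 tested erythrocyte markers, 9 were lower and 0 higher in the mutant (limma, adjusted p under 0.05), led by cahz, alas2 and si:ch211-5k11.6, with a summed level of 233 to 245 FPKM in mutant libraries against 422 to 494 FPKM in wild type libraries. Of 8 tested neutrophil markers 6 were higher, cyba and mmp13a among them (45 to 100 FPKM summed in the mutant, 24.4 to 31.3 FPKM in wild type). Of 19 macrophage markers 7 were higher, led by marco, mpeg1.2 and irf8, at 681 to 992 FPKM summed in the mutant against 463 to 687 FPKM in wild type. Of 13 biliary and endothelial markers 3 were higher, krt18, krt8 and cldn5b, and 10 were not called (median log2 fold change 0.26). This list summed to 1190 to 1463 FPKM in the mutant against 697 to 717 FPKM in wild type. Hepatocyte markers were split, 5 higher and 5 lower of 25. For exocrine pancreas 1 of 18 markers was higher, near the share of all tested genes. Their summed level was 295 to 1089 FPKM in the mutant against 307 to 2232 FPKM in wild type. No marker was at 0 in all libraries, and the part of these cells in the results below was not tested. With a library left out, the erythrocyte count was 5 for replicate 1 or 2 of either genotype. The macrophage count was 3 with mutant replicate 1 or 2 left out, 4 with mutant replicate 3 or wild type replicate 1 left out, and 1 with wild type replicate 2 left out. It rose to 10 with wild type replicate 3 left out. The neutrophil count was 2, 3 and 1 on leaving out mutant replicate 2, then 3, and then wild type replicate 2. Hepatocyte markers were 2 higher and 1 lower on leaving out mutant replicate 1 or 2 or wild type replicate 2. They were 3 higher on leaving out wild type replicate 1, and 3 higher and 3 lower on leaving out wild type replicate 3. Without mutant replicate 3 they were 7 higher and 7 lower. Biliary and endothelial markers were 1 higher on leaving out mutant replicate 1. In bulk tissue, fewer cells of a type and less RNA per cell cannot be told apart.

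Of the 42 genes, 38 reached at least 1 FPKM in at least 3 libraries and were tested, and 8 of these passed the threshold of an adjusted p under 0.05 (limma on log2(FPKM + 1), Benjamini-Hochberg over 11164 genes). Higher in the mutant were prdx1, gsr, txnrd1, prdx5 and gpx1b; lower were keap1a, msrb1a and cat. The share past the threshold was 21.1%, where 11.4% of all tested genes passed; 13.2% were higher against 5.91% of all genes, and 7.89% were lower against 5.45%. The 38 log2 fold changes, mutant minus wild type, were positive for 20 genes and negative for 18, with a median of 0.06 against 0.049 for all tested genes. Their median absolute size was 0.49, against 0.24 for all tested genes. Sizes on this scale and calls depend on the level of a gene, and a comparison with genes of like level was not made. The members were also chosen with earlier results of these data known. The direction of each of the 8 was kept in all 15 alternatives, and keap1a, gsr, msrb1a and prdx1 also kept the call in all 15. In the alternative with a filter of 5 FPKM, prdx1 and gsr passed the filter through the mutant libraries alone. There msrb1a passed it through the wild type libraries alone, so this alternative adds no support for these genes. The higher genes numbered 2 on leaving out mutant replicate 1 or 2 or wild type replicate 2, and 3 on leaving out wild type replicate 1. Of the lower genes, cat lost its call on leaving out mutant replicate 1 or 2 or wild type replicate 2, which left keap1a and msrb1a. The lower genes numbered 5 on leaving out mutant replicate 3.

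**Figure D1:**
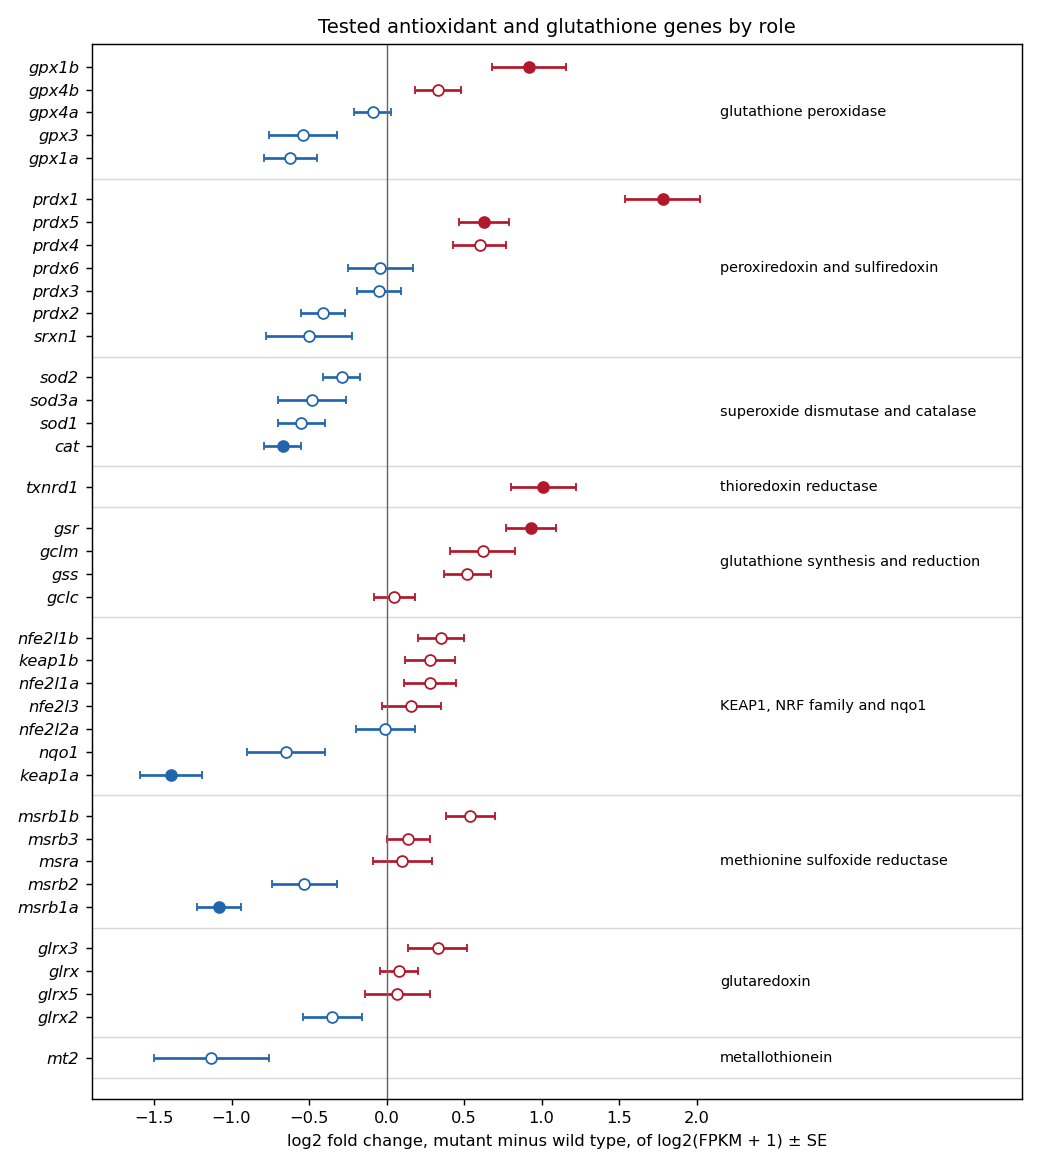
Log2 fold change, mutant minus wild type, of log2(FPKM + 1) for the 38 tested genes grouped by role, with bars of 1 standard error; red marks positive and blue negative values, and filled points mark an adjusted p under 0.05. The filled points are prdx1, gsr, txnrd1, prdx5 and gpx1b on the right and keap1a, msrb1a and cat on the left, and superoxide dismutases and catalase all lie left of 0.

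The libraries of the genotypes did not overlap in 21 of the 38 genes, 55.3%, where 33.8% of all tested genes had this property. Of these 21, 11 were higher in the mutant (19.1% of all tested genes were) and 10 lower (14.7% of all). The 13 that did not pass the adjusted threshold were 6 higher and 7 lower ones. For 8 members the span overlaps that of a neighbouring gene, and no source states stranded counting, so that reads could be shared. These are keap1b, glrx, gpx1a, gpx3, gpx4a, gpx7, sod2 and sod3b, none of them among the 8 that passed. No member past the threshold lies on chromosome 20, the chromosome of capn3b, where sod2, prdx6, msra and glrx5 lie 5.0, 10.8, 13.0 and 15.6 Mb from it.

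Levels spanned the range from gpx4a, with a mean of 4423.5 ± 112 FPKM in the mutant and 4733.9 ± 496 FPKM in wild type (SD, n = 3 each), to gpx7, with 1 read in the mutant and 1 read in the wild type libraries altogether. All members together took 1.19% to 1.3% of the FPKM of a mutant library and 1.35% to 1.49% of a wild type library. A large part of this is gpx4a, with 60.6% to 64.2% of the members' FPKM in mutant libraries and 54.2% to 58.6% in wild type libraries. Without gpx4a, the members summed to 2484, 2444 and 2935 FPKM in the mutant against 3557, 3676 and 3493 FPKM in wild type, so that the groups did not overlap. Catalase, prdx2, gpx1a and sod1, the next in abundance, each had a lower mean in the mutant.

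**Figure D2:**
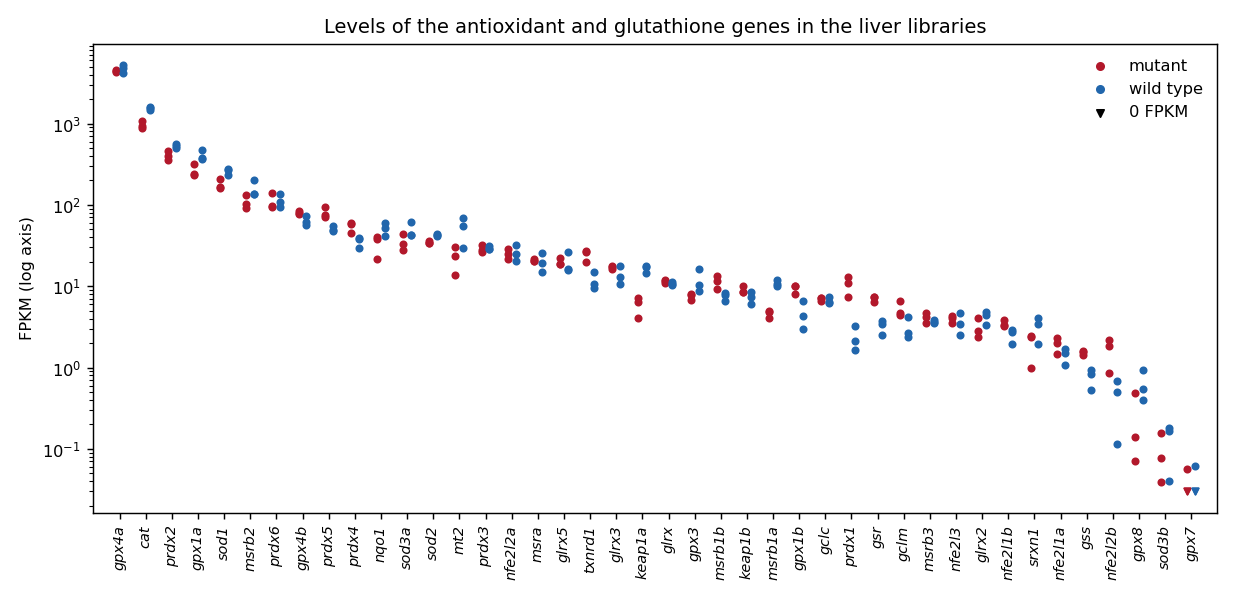
FPKM of all 42 genes in each library on a log axis, ordered by mean level, mutant (red) to the left of wild type (blue) for each gene; triangles mark 0 FPKM. Levels fall from gpx4a to gpx7, and for cat, prdx2, gpx1a and sod1 every mutant point lies under every wild type point.

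Superoxide dismutases turn superoxide into hydrogen peroxide, and catalase splits the peroxide in peroxisomes. Catalase (cat, ENSDARG00000104702, chromosome 25, 7318706 to 7328383, plus strand, GRCz11 as named in the submitters' processing notes and for all positions here) had 892, 938 and 1077.6 FPKM in mutant livers against 1586.4, 1550.0 and 1464.5 FPKM in wild type livers. The mutant mean was 969 ± 96.7 FPKM, 1.58-fold lower than the wild type mean of 1533.6 ± 62.6 FPKM (SD, n = 3 each), and no mutant library reached a wild type library. The difference passed the threshold (log2 fold change -0.67, standard error 0.12, limma adjusted p = 0.017), with a range of 0.013 to 0.0669 over the alternatives. On leaving out mutant replicate 1, then 2, and then wild type replicate 2, it was 0.0648, 0.061 and 0.0605.

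The cytosolic copper and zinc enzyme sod1 lay just outside the threshold. It had 166, 163 and 206 FPKM in mutant livers against 235, 272 and 276 FPKM in wild type livers, with no overlap of the groups (log2 fold change -0.55, standard error 0.15, limma adjusted p = 0.0524). It passed under 5 of the 15 alternatives, among them voom on reads recovered from the FPKM (0.0459) and the fit without mutant replicate 3 (0.0386). Mitochondrial sod2 had 33.9, 33.9 and 35.5 FPKM in the mutant against 41.8, 42.3 and 43.3 FPKM in wild type, again without overlap, at an adjusted p of 0.162 (limma). Extracellular sod3a had 32.9, 27.7 and 44 FPKM in the mutant against 61.6, 42.1 and 43 FPKM in wild type, with overlapping groups (adjusted p = 0.2, limma). Its relative sod3b was barely read, with 7 reads in mutant and 10 reads in wild type libraries. Catalase and dismutase genes summed to 1217 ± 128 FPKM in mutant livers and 1886 ± 52.1 FPKM in wild type livers (SD, n = 3 each). All 4 tested log2 fold changes of this role were negative, and catalase alone passed the test.

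Glutathione peroxidases reduce peroxides with glutathione, gpx1 in the cytosol, gpx3 as a secreted form and gpx4 on lipid hydroperoxides in membranes. The gene gpx1b (ENSDARG00000006207, chromosome 6, 42340773 to 42343683, plus strand) rose to 7.93, 10.1 and 10.2 FPKM in mutant livers, against 6.63, 4.28 and 3.01 FPKM in wild type livers. Its means were 9.39 ± 1.27 FPKM in the mutant and 4.64 ± 1.84 FPKM in wild type (SD, n = 3 each), a ratio of 2.02, and the closest libraries were mutant replicate 1 and wild type replicate 1. The log2 fold change of 0.92 (standard error 0.24) had a limma adjusted p of 0.045. Over the alternatives it ranged from 0.0189 to 0.131 and missed the threshold in 10 of 15, more often than for the other 7 genes. Without mutant replicate 1, 2 or 3 it was 0.0798, 0.128 and 0.101, and without wild type replicate 2 or 3 it was 0.131 and 0.0798.

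The other copy, gpx1a, was far more abundant and pointed the other way. It had 234, 242 and 322 FPKM in mutant livers against 369, 473 and 380 FPKM in wild type livers, with no overlap and an adjusted p of 0.0598 (log2 fold change -0.62, standard error 0.17, limma). Without mutant replicate 3 the adjusted p was 0.0329. The most abundant member, gpx4a, had 4456.5, 4298.8 and 4515.2 FPKM in the mutant against 4214.6, 5203.6 and 4783.4 FPKM in wild type. These groups overlapped (log2 fold change -0.09, standard error 0.12, limma adjusted p = 0.651). Its copy gpx4b had 83.5, 76.7 and 79.6 FPKM in the mutant against 56.1, 61.7 and 74 FPKM in wild type, higher in every mutant library than in any wild type library, at an adjusted p of 0.195 (limma). For gpx3 the values were 7.88, 7.94 and 6.79 FPKM in the mutant against 16.2, 10.3 and 8.81 FPKM in wild type, lower in every mutant library but not past the threshold (adjusted p = 0.145, limma). The endoplasmic reticulum forms were under the filter: gpx8 had 20 reads in mutant and 53 reads in wild type libraries, and gpx7 had 1 read in each genotype.

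Peroxiredoxins reduce hydrogen peroxide through a reactive cysteine that thioredoxin restores. The cytosolic form prdx1 (ENSDARG00000058734, chromosome 2, 6194609 to 6203806, minus strand) had the greatest rise of the 38 tested genes, with 11, 13 and 7.45 FPKM in mutant livers against 2.1, 1.65 and 3.26 FPKM in wild type livers. The means were 10.5 ± 2.81 FPKM in the mutant and 2.34 ± 0.827 FPKM in wild type (SD, n = 3 each), a ratio of 4.48. Every mutant library lay above every wild type library, and the log2 fold change of 1.78 (standard error 0.24) had a limma adjusted p of 0.00613, between 0.00509 and 0.0298 over the alternatives. The deposited event lists carry FPKM of transcripts and not of genes. In them prdx1 has a start exon at 6203630 to 6203806 with 17.9, 19.7 and 14.5 FPKM in the mutant against 3.85, 3.18 and 6.2 FPKM in wild type. A further start exon, at 6203476 to 6203507, was listed with 9.47 and 16 FPKM in mutant replicates 1 and 2 and at 0 in the other 4 libraries.

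The form prdx5, found in mitochondria, peroxisomes and the cytosol in mammals, also rose (ENSDARG00000055064, chromosome 21, 26620617 to 26628034, plus strand). It had 94.4, 75.5 and 70.4 FPKM in mutant livers against 55.6, 48 and 49.4 FPKM in wild type livers, without overlap. The means of 80.1 ± 12.6 FPKM in the mutant and 51 ± 4.07 FPKM in wild type (SD, n = 3 each) gave a ratio of 1.57, and the log2 fold change was 0.63 (standard error 0.16, limma adjusted p = 0.0407). The adjusted p ranged from 0.0318 to 0.134 over the alternatives and missed the threshold in 8 of 15. It was 0.134 and 0.0913 on leaving out mutant replicate 1 or 2, and 0.0619, 0.128 and 0.0818 on leaving out wild type replicate 1, 2 or 3. Under median scaling it was 0.0662. The endoplasmic reticulum form prdx4 had 45.5, 59.3 and 57.4 FPKM in the mutant against 29.6, 38 and 38.7 FPKM in wild type, higher in every mutant library, at an adjusted p of 0.0612 (limma). After quantile normalization it was 0.0338.

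The most abundant peroxiredoxin was lower in every mutant library. This is the gene named prdx2, annotated only as a peroxiredoxin, with 398, 352 and 457 FPKM in the mutant against 537, 568 and 498 FPKM in wild type, and it did not pass the threshold (log2 fold change -0.41, standard error 0.14, limma adjusted p = 0.102). Mitochondrial prdx3 had 28, 26.1 and 31.9 FPKM in the mutant against 28.7, 31.4 and 28.9 FPKM in wild type, and prdx6, which also cleaves phospholipids, had 95.6, 94.6 and 140 FPKM in the mutant against 95, 107 and 137 FPKM in wild type. Both overlapped between genotypes, with adjusted p-values of 0.845 and 0.917 (limma). Sulfiredoxin, srxn1, which repairs over-oxidised peroxiredoxins, had 2.47, 0.987 and 2.39 FPKM in the mutant against 1.96, 3.41 and 4.02 FPKM in wild type, with overlapping groups (adjusted p = 0.285, limma). The 7 genes of this role summed to 688 ± 72.9 FPKM in the mutant and 769 ± 24.9 FPKM in wild type (SD, n = 3 each).

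Thioredoxin reductase and glutathione reductase, the NADPH-dependent enzymes that restore thioredoxin and glutathione, were both higher in the mutant. The gene txnrd1 (ENSDARG00000100374, chromosome 6, 661726 to 688111, minus strand) had 27, 26 and 19.6 FPKM in mutant livers against 9.38, 10.6 and 15 FPKM in wild type livers. No groups overlapped here, and the means were 24.2 ± 4 FPKM in the mutant and 11.7 ± 2.99 FPKM in wild type (SD, n = 3 each), a ratio of 2.08. With a log2 fold change of 1.01 and a standard error of 0.21, the limma adjusted p was 0.0222, and it ranged from 0.0173 to 0.0849. Leaving out mutant replicate 1 or 2 gave 0.0785 and 0.0733, and leaving out wild type replicate 1 or 2 gave 0.059 and 0.0849.

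The gene gsr (ENSDARG00000019236, chromosome 14, 38512655 to 38532831, minus strand) had 7.3, 7.45 and 6.4 FPKM in mutant livers against 3.47, 2.49 and 3.78 FPKM in wild type livers. Means were 7.05 ± 0.569 FPKM in the mutant and 3.25 ± 0.672 FPKM in wild type (SD, n = 3 each), a ratio of 2.17 with no overlap. The log2 fold change of 0.93 (standard error 0.16) had a limma adjusted p of 0.0127, between 0.0111 and 0.0485 over the alternatives. In the event lists, transcripts that include the gsr exon at 38516645 to 38516776 had 12.3, 14.4 and 8.42 FPKM in the mutant against 3.7, 4.32 and 4.75 FPKM in wild type, and transcripts that skip it had 0, 1.74 and 1.82 FPKM in the mutant against 1.73, 0.483 and 1.11 FPKM in wild type. The forms with the exon were higher in every mutant library, and the skipping forms overlapped between genotypes. The only start exon listed for gsr, at 38532630 to 38532831, had 6.62, 1.74 and 8.59 FPKM in the mutant against 5.43, 6.19 and 5.86 FPKM in wild type, also overlapping, so that the event values do not all follow the level of the gene.

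Glutathione itself is made by glutamate-cysteine ligase, with the catalytic subunit gclc and the modifier subunit gclm, followed by glutathione synthetase, gss. By limma 0 of these 3 passed the threshold, gclm and gss had an unadjusted p of 0.0178 and 0.00848, and voom called 0. The catalytic subunit had 7.17, 7.1 and 6.54 FPKM in the mutant against 7.45, 6.37 and 6.27 FPKM in wild type, with overlapping groups and a log2 fold change of 0.05 (standard error 0.13, limma adjusted p = 0.852). The modifier subunit had 4.38, 6.54 and 4.73 FPKM in the mutant against 2.37, 2.64 and 4.18 FPKM in wild type, higher in every mutant library (log2 fold change 0.62, standard error 0.21, limma adjusted p = 0.0956). Leaving out wild type replicate 3 gave 0.0441. Glutathione synthetase had 1.41, 1.58 and 1.56 FPKM in the mutant against 0.525, 0.931 and 0.838 FPKM in wild type, at an adjusted p of 0.0616 (limma), and it passed the filter through the mutant libraries alone. The synthesis and reduction genes together, gsr included, summed to 20.7 ± 1.76 FPKM in the mutant and 13.8 ± 1.32 FPKM in wild type (SD, n = 3 each).

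**Figure D3:**
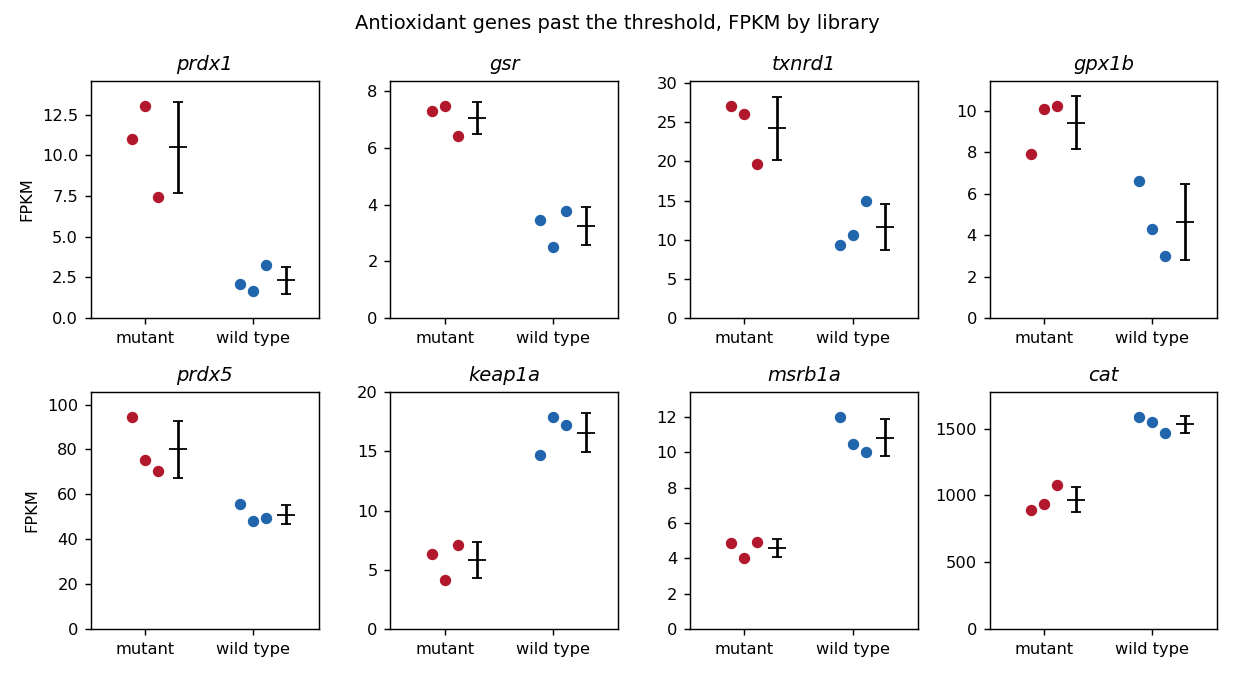
FPKM per library of the 8 genes past the threshold, mutant (red) left of wild type (blue) in each panel, with the mean and SD of 3 libraries in black; each axis starts at 0. The mutant points lie above all wild type points for prdx1, gsr, txnrd1, gpx1b and prdx5 and below them for keap1a, msrb1a and cat.

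Among the regulators, keap1a (ENSDARG00000016132, chromosome 2, 41985607 to 42011622, minus strand) fell to 6.33, 4.11 and 7.08 FPKM in mutant livers, against 14.7, 17.9 and 17.2 FPKM in wild type livers. The mean was 5.84 ± 1.54 FPKM in the mutant and 16.6 ± 1.67 FPKM in wild type (SD, n = 3 each), 2.84-fold lower, with the groups far apart. The log2 fold change of -1.39 (standard error 0.20) had a limma adjusted p of 0.00703, between 0.00565 and 0.0357 over the alternatives. The other copy, keap1b, had 10.2, 8.55 and 8.43 FPKM in the mutant against 6.11, 7.35 and 8.43 FPKM in wild type, the lowest mutant and the highest wild type value being equal as printed (log2 fold change 0.28, standard error 0.16, limma adjusted p = 0.284).

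Of the NRF factors, nfe2l2a, the more abundant NRF2 gene, had 25.2, 21.7 and 28.6 FPKM in mutant livers against 31.8, 20.2 and 24.9 FPKM in wild type livers. The groups overlapped (log2 fold change -0.01, standard error 0.19, limma adjusted p = 0.976). The gene named nfe2l2b was under the filter, with 2.16, 0.856 and 1.82 FPKM in the mutant against 0.496, 0.116 and 0.692 FPKM in wild type, or 263 reads in the mutant against 70 reads in wild type. Each mutant library lay above each wild type library, and with no filter the log2 fold change was 0.85 at an adjusted p of 0.141 (limma). The related factors nfe2l1a, nfe2l1b and nfe2l3, at 1.06 to 4.65 FPKM over both genotypes, did not pass. Of these 3, nfe2l1b alone had no overlap, with 3.26, 3.29 and 3.81 FPKM in the mutant against 2.77, 1.93 and 2.87 FPKM in wild type (adjusted p = 0.188, limma). Mammalian NQO1 is a textbook NRF2 target, but the deposited match of the gene named nqo1 is NQO2. The quinone reductase gene nqo1 had 37.7, 21.5 and 39.8 FPKM in the mutant against 41.6, 52.7 and 59.7 FPKM in wild type. It was lower in every mutant library but not past the threshold (log2 fold change -0.65, standard error 0.25, limma adjusted p = 0.137).

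Methionine sulfoxide reductases repair oxidised methionine, msra on the S form and the msrb enzymes on the R form. The gene msrb1a (ENSDARG00000025436, chromosome 3, 18648691 to 18655554, minus strand), whose mammalian counterpart is a selenoprotein, fell to 4.87, 4.01 and 4.92 FPKM in mutant livers, against 12, 10.5 and 10 FPKM in wild type livers. Means were 4.6 ± 0.515 FPKM in the mutant and 10.8 ± 1.04 FPKM in wild type (SD, n = 3 each), 2.35-fold lower, and the groups were well apart. The log2 fold change of -1.08 (standard error 0.14) had a limma adjusted p of 0.00579, between 0.00481 and 0.0255 over the alternatives.

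Its copy msrb1b had 13.2, 11.7 and 9.35 FPKM in the mutant against 6.58, 8.14 and 7.79 FPKM in wild type, higher in every mutant library, with an adjusted p of 0.0726 (log2 fold change 0.54, standard error 0.16, limma). The most abundant enzyme of this role, mitochondrial msrb2, had 103, 90.7 and 131 FPKM in the mutant against 202, 135 and 136 FPKM in wild type. Those groups did not overlap, and the adjusted p was 0.148 (limma). Both msra, at 20.3 to 21.7 FPKM in the mutant against 15 to 25.5 FPKM in wild type, and msrb3, at 3.57 to 4.73 FPKM in the mutant against 3.52 to 3.84 FPKM in wild type, overlapped between genotypes.

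Glutaredoxins use glutathione to reduce protein disulfides, and glrx3 and glrx5 also take part in iron-sulfur cluster handling. By limma 0 of the 4 passed the threshold, 0 had an unadjusted p under 0.05, and voom on the recovered reads called 0. Together they summed to 51.8 ± 1.33 FPKM in the mutant and 48.3 ± 9.58 FPKM in wild type (SD, n = 3 each). The most abundant by gene FPKM, glrx5, had 18.9, 22.2 and 19 FPKM in mutant livers against 16.2, 15.7 and 26.5 FPKM in wild type livers, with overlapping groups (log2 fold change 0.07, standard error 0.21, limma adjusted p = 0.858). The event lists, summed over start exons, do not follow this rank. There glrx5 was at 0 in every library. In the same lists glrx had 66.3, 76.5 and 79.2 FPKM in the mutant against 62.6, 65 and 72 FPKM in wild type. The smallest p was that of mitochondrial glrx2, with 2.84, 2.39 and 4.12 FPKM in the mutant against 4.44, 4.83 and 3.34 FPKM in wild type, also overlapping (adjusted p = 0.289, limma). The values of glrx, at 11.1 to 12 FPKM in the mutant against 10.4 to 11.4 FPKM in wild type, and of glrx3, at 16.5 to 17.7 FPKM in the mutant against 10.5 to 17.9 FPKM in wild type, overlapped as well.

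The metallothionein gene mt2, whose protein binds zinc and copper through cysteines, had 13.7, 23.7 and 30.4 FPKM in mutant livers against 29.1, 69.5 and 55.5 FPKM in wild type livers. Mutant replicate 3 lay above wild type replicate 1, so the groups overlapped. It did not pass (log2 fold change -1.13, standard error 0.37, limma adjusted p = 0.0884). On leaving out wild type replicate 1 the adjusted p was 0.0387. A further metallothionein outside the name rule, mtbl, was nearly unread, with 0.156, 0 and 0.152 FPKM in the mutant against 0.575, 0.973 and 0.166 FPKM in wild type. How reads were assigned between similar copies is not given in the sources used here.

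Names ending in a and b mark paired copies in zebrafish, and 6 such pairs within this group of genes were compared. The pair sod3a and sod3b was not among them, and sod3b had 7 reads in mutant and 10 reads in wild type libraries. The ratio of copy a to copy b within a library was set against genotype for all 6, with an exact two-sided permutation test of genotype over the 6 libraries and adjustment over the 6 pairs. The tested quantity was the difference of log2(FPKM + 1) between the copies, while the ratios printed here are of FPKM. This test cannot give a p under 0.1. The ratio keap1a to keap1b was 0.621, 0.48 and 0.84 in mutant livers against 2.41, 2.43 and 2.04 in wild type livers, so that keap1b was the more abundant copy in each mutant library and keap1a in each wild type library. The same change of rank occurred for msrb1a to msrb1b, at 0.368, 0.343 and 0.526 in the mutant against 1.82, 1.28 and 1.28 in wild type. Neither ratio overlapped between genotypes (p = 0.1, adjusted p = 0.12, exact permutation test for each pair). These ranks are of gene FPKM, and the transcript values of the event lists, summed over start exons, do not all follow them. There msrb1b was the more abundant copy in wild type replicates 2 and 3 too, at 29.4 and 26.1 FPKM against 13.5 and 14 FPKM for msrb1a. In mutant replicate 3 the event lists had keap1a at 7.25 FPKM and keap1b at 7.19 FPKM.

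The ratio gpx1a to gpx1b was 29.5, 24.1 and 31.6 in the mutant against 55.6, 110 and 126 in wild type, with gpx1a the more abundant copy throughout. The ratio gpx4a to gpx4b, at 53.4, 56.1 and 56.7 in the mutant against 75.1, 84.4 and 64.7 in wild type, and that of nfe2l2a to nfe2l2b, at 11.7, 25.3 and 15.7 in the mutant against 64.2, 175 and 36 in wild type, were also lower in every mutant library (p = 0.1, adjusted p = 0.12, exact permutation test for each). The gene nfe2l2b was under the filter, and its wild type ratios rest on 29, 6 and 35 reads of it. Its place as a copy of NRF2 rests on its name. For nfe2l1a to nfe2l1b the ratios overlapped, at 0.717, 0.602 and 0.382 in the mutant against 0.382, 0.782 and 0.581 in wild type (p = 0.8, adjusted p = 0.8, exact permutation test). Since 0.1 is the smallest p that 3 libraries against 3 allow, none of the 6 tests could pass 0.05. Single genes did not overlap in 33.8% of all tested genes. How often ratios of other gene pairs do not overlap was not tested.

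**Figure D4:**
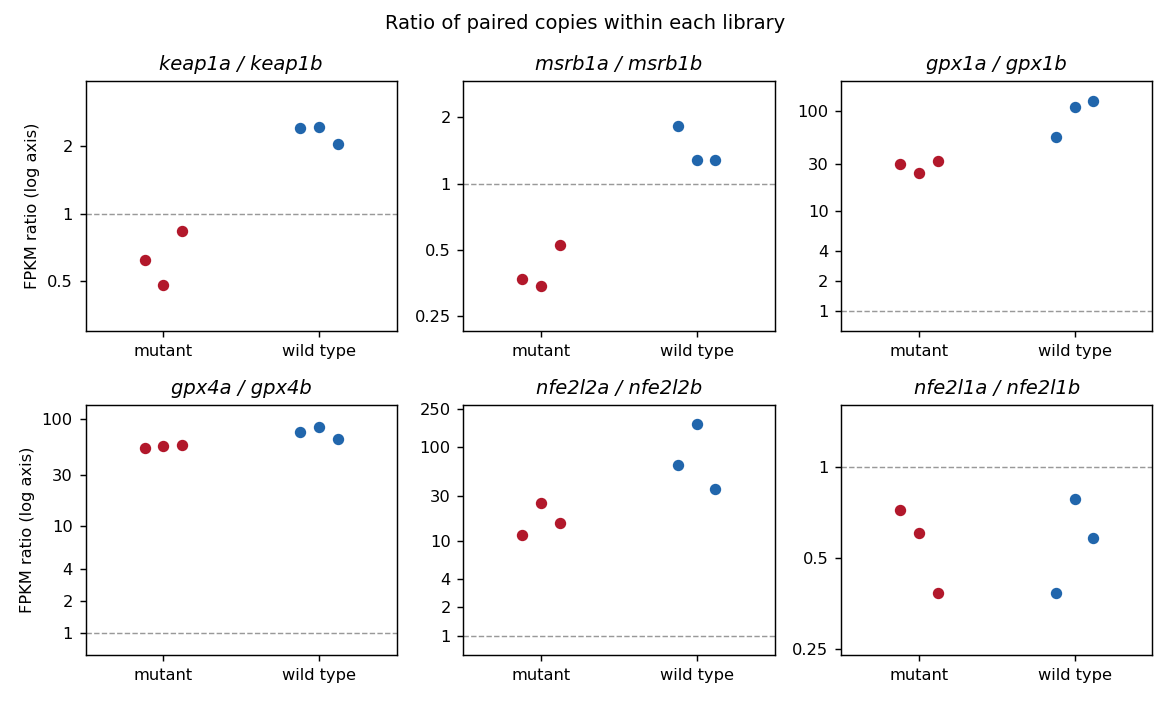
Ratio of the FPKM of copy a to that of copy b within each library for 6 pairs, on log axes, mutant (red) left of wild type (blue); the dashed line marks equal levels. For keap1 and msrb1 the mutant points lie below the line and the wild type points above it, and for nfe2l1 the groups overlap.

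Lists of other redox genes, chosen with earlier results of these data known, are given by counts and medians; 11.4% of all tested genes passed the same threshold. Of 17 tested genes of NADPH supply, 4 were higher and 0 lower, and the median log2 fold change was 0.23. The higher count was 1 on leaving out mutant replicate 1 or wild type replicate 2, and 2 on leaving out mutant replicate 2 or wild type replicate 1. On leaving out mutant replicate 3 there was 1 lower gene. The mitochondrial folate enzyme aldh1l2 had 4.79, 3.81 and 2.73 FPKM in mutant livers against 0.367, 0.96 and 0.791 FPKM in wild type livers. It reached the expression filter through the mutant libraries alone. It passed in the 14 alternatives that tested it, and the filter of 5 FPKM left it out (log2 fold change 1.48, standard error 0.21, limma adjusted p = 0.00724). The pentose phosphate enzyme pgd had 22.2, 21.2 and 22.9 FPKM in the mutant against 10.6, 10.8 and 14.5 FPKM in wild type. Its limma adjusted p of 0.0167 reached at most 0.0668 and lost the call on leaving out mutant replicate 1 or wild type replicate 2.

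Of 17 tested genes of the thioredoxin system 2 were higher and 0 lower, and the median log2 fold change was 0.18. The count was 1 on leaving out mutant replicate 1, and 0 on leaving out mutant replicate 2 or wild type replicate 1 or 2. Without wild type replicate 3 the count was 3. The 2 higher genes include thioredoxin itself, the substrate of thioredoxin reductase: txn had 273, 274 and 234 FPKM in mutant livers against 102, 127 and 180 FPKM in wild type livers. The groups did not overlap (log2 fold change 0.96, standard error 0.21, limma adjusted p = 0.0274), and the adjusted p reached 0.0961 and missed the threshold in 6 of 15 alternatives. Of 16 tested genes of glutathione turnover and cysteine supply 0 passed in either direction by limma, 4 had an unadjusted p under 0.05, and voom on the recovered reads called 0. On leaving out mutant replicate 3 there was 1 higher gene, and on leaving out wild type replicate 3 there were 2.

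Of 28 tested genes known as NRF2 targets outside the name rule, 6 were higher and 2 lower, with a median log2 fold change of -0.12. On leaving out mutant replicate 1 or wild type replicate 2 the counts were 1 and 0, and on leaving out mutant replicate 2 they were 2 and 1. The higher count was 3 on leaving out wild type replicate 1, and the lower count was 1 on leaving out replicate 3 of either genotype. Of 13 tested partners of KEAP1 and NRF2, 3 were higher and 0 lower, with a median of 0.16. That count was 1 on leaving out replicate 1 or 2 of either genotype, and on leaving out wild type replicate 1 there was also 1 lower gene. Some genes are counted in more than 1 list: of the higher NRF2 targets, pgd and taldo1 also stand under NADPH supply and txn under the thioredoxin system. The gene maff, a small MAF protein that pairs with NRF2 on DNA, stands among both the NRF2 targets and the partners. It had 16, 19.6 and 11.9 FPKM in the mutant against 5.66, 5.43 and 5.99 FPKM in wild type and passed under all alternatives (log2 fold change 1.30, standard error 0.19, limma adjusted p = 0.00724).

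Glutathione transferases, which join glutathione to other compounds, had 1 higher and 7 lower genes among 18 tested, and their median log2 fold change was -0.64. Their summed level was 903 to 1217 FPKM in mutant libraries against 1509 to 1672 FPKM in wild type libraries. The membrane enzyme mgst2 had 9.8, 7.83 and 7 FPKM in the mutant against 27.3, 21.6 and 35.1 FPKM in wild type (log2 fold change -1.64, standard error 0.21, limma adjusted p = 0.00525). For gstm.1 the values were 11.2, 11.2 and 11.9 FPKM in the mutant against 27.9, 22.8 and 24.3 FPKM in wild type (adjusted p = 0.0055, limma). The third, mgst3a, had 27.6, 23 and 29.3 FPKM in the mutant against 53.3, 66.6 and 63 FPKM in wild type (adjusted p = 0.00613, limma). None of these 3 overlapped between genotypes, and all 3 passed under all alternatives. The lower count was 3 on leaving out mutant replicate 1 or 2 or wild type replicate 3. The 1 higher gene, gstm.3, lost its call on leaving out mutant replicate 1 or 3 or wild type replicate 1 or 2.

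Selenoproteins carry selenocysteine, as do mammalian gpx1, gpx4, txnrd1 and msrb1. Of 20 tested genes of selenoprotein synthesis and other selenoproteins, 5 were lower and 0 higher, and the median log2 fold change was -0.33. One of the lower genes, scly, reached the expression filter through the wild type libraries alone. It missed the threshold in 8 of the 14 alternatives that tested it, and fam213aa missed it in 10 of 15. The lower count was 2 on leaving out mutant replicate 1 or 2, or wild type replicate 2 or 3. The deiodinase dio1, which acts on thyroid hormone, had 43, 29.6 and 45.2 FPKM in the mutant against 118, 117 and 97.1 FPKM in wild type (log2 fold change -1.49, standard error 0.19, limma adjusted p = 0.0055). For sephs1, a relative of the enzyme that makes selenophosphate, the values were 2.04, 2.43 and 2.8 FPKM in the mutant against 7.42, 13.3 and 18.6 FPKM in wild type (log2 fold change -1.96, standard error 0.29, limma adjusted p = 0.008). Both passed in all alternatives and had no overlap between genotypes.

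Of 22 tested enzymes that make superoxide or hydrogen peroxide, 5 were higher and 0 lower, and the median log2 fold change was -0.07. The higher count was 3 on leaving out mutant replicate 3 or wild type replicate 1, and 2 on leaving out wild type replicate 2. Without wild type replicate 3 that count was 6. On leaving out mutant replicate 1 there was 1 lower gene, and on leaving out mutant replicate 3 there were 2. The endoplasmic reticulum oxidase ero1a had 4.17, 5.99 and 6.75 FPKM in mutant livers against 0.296, 0.111 and 0.657 FPKM in wild type livers, and it too reached the expression filter through the mutant libraries alone. It passed in the 14 alternatives that tested it, the filter of 5 FPKM leaving it out (log2 fold change 2.29, standard error 0.21, limma adjusted p = 0.00201). Also higher were cyba, cybb and ncf1, which are subunits of the phagocyte NADPH oxidase and stand in the neutrophil marker list as well. Of that list 6 of 8 tested genes were higher, and the part of cell numbers in this result was not tested. Of 13 tested metal handling genes 2 were higher, the copper chaperone atox1 and the copper oxidase cp. That count was 1 on leaving out mutant replicate 2 or wild type replicate 1 or 3, and 0 on leaving out mutant replicate 1 or wild type replicate 2.

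**Figure D5:**
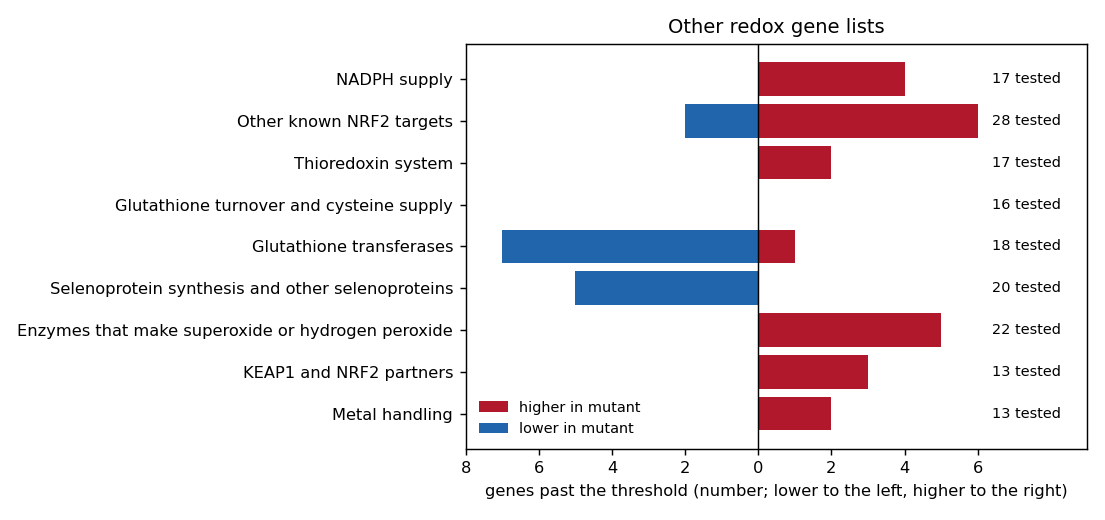
Number of genes past an adjusted p of 0.05 (limma) in 9 lists of other redox genes, higher in the mutant to the right and lower to the left, with the number tested at the right edge. Glutathione transferases (7 lower, 1 higher) and selenoprotein genes (5 lower, 0 higher) extend to the left, and NRF2 targets (6 higher, 2 lower) and enzymes that make superoxide or hydrogen peroxide (5 higher, 0 lower) to the right.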

How the data were processed

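Dissected livers gave RNA by TRIzol and a column kit for Illumina sequencing, per the labels' protocols. The authors deposited FPKM values for 23354 genes and, per library, lists of splicing, start and end events with transcript-level FPKM. DESeq2 and GRCz11 are named in the submitters' processing notes. Aligner, counter and annotation release: not given in the sources used here.

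Members and gene lists were chosen with earlier results of these data known. Groups follow the genotype label, and 0 value columns were left unmapped. A gene was tested if 3 or more of the 6 libraries had 1 FPKM or more. The test was limma 3.58.1 (R 4.3.3) on log2(FPKM + 1), a pseudocount of 1, with variance moderated along mean level. It was two-sided, with p-values adjusted by Benjamini-Hochberg over 11164 genes and a call under 0.05. Fold changes on this scale understate changes of low genes; ratios in the text are of mean FPKM. The fit was tested on simulated data. FPKM are not counts, but whole reads within 0.05 could be recovered in every library for 99.991% of 23354 genes. These reads give depths, floors of 3 reads, which cover counting error only, and a voom fit, which called 707 genes higher and 681 lower.

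Values per library are given for members past the threshold and for the most abundant member and the smallest p of each role, and for others where they add to the account. Of list genes, at most the 3 with the smallest p have values. A gene under this rule is not reported here. Alternatives were pseudocounts of 0.1 and 5, scaling by library medians, quantile normalization, replicate number as a blocking term, no filter, a filter of 5 FPKM, robust moderation, voom on recovered reads and each library left out in turn. Event values are described with no test. Tables were handled in Python 3.11.15 (pandas 2.3.3, numpy 2.4.6), and figures were made with matplotlib 3.10.9. No sequence is printed.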

Additional observations from a re-analysis of the deposited data

How the results depend on the processing

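Over 38 tested members and 15 alternatives, 522 results kept direction and side of the threshold, 29 kept direction but no longer passed, 11 newly passed and none changed sign at a call; 8 members were not tested with the 5 FPKM filter. Uncalled nfe2l2a, gclc and prdx6 changed sign under some scaling. Of members, 5 were higher in the mutant, but 3 under median scaling and 2 with no filter; 3 were lower, but 5 with a filter of 5 FPKM. Leaving out single libraries gave 2 to 4 higher and 2 to 5 lower members. Of all genes, 660 were higher, but 287 with no filter and 426 with the 5 FPKM filter, and 608 were lower, but 305 with no filter; left-out libraries gave 186 to 663 higher and 228 to 606 lower. The cause was not tested, except that no filter adds genes to the adjustment and a left-out library removes samples. The median log2 fold change of the members ran from -0.03 to 0.09. The replicate numbers do not pair the libraries: deviations of same-numbered libraries correlated at -0.0448, -0.00964 and -0.0833. With the number as a replicate block, 2 members were higher (prdx1 and gsr) and 3 lower (keap1a, msrb1a and mt2), with 475 higher and 475 lower genes in all. With 7 mutant and 10 wild type reads for sod3b and 1 of each for gpx7, this depth does not allow a comparison of these genes.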
